A study of Mus musculus with 6 samples.

Results

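Heat shock proteins were read in microdissected crypts of the mouse small intestine, in mice with and without loss of imprinting of Igf2. The set named 10 genes, chosen by symbol, and 7 of them had probes whose accession was paired with the symbol in the reference gene table, for 15 of the 41006 probes of the array. Hspb1, Hsph1 and Dnajb1 stood for the inducible class with 4 probes. Hspa8, Hspa9, Hspe1 and Dnaja1 stood for the constitutive class with 11 probes. Hspa1a and Hspa1b, the genes of the strictly inducible HSP70, and Hspd1, the mitochondrial HSP60, had no paired probe and were not analysed here, so the inducible class lacked its best known members.

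The LOI(+) group held 3 mice on a C57BL/6 background, aged 120 days, that had inherited from the mother an allele from which the 3 kb of H19 and 10 kb before it, the differentially methylated region among them, had been removed. In that allele the maternal Igf2, normally silent, is switched on, per the series' design. The LOI(-) group held 3 wild-type mice of the same age and background from the same kind of cross, in which the maternal Igf2 is silent. The labels call 4 of the mice male and give no sex for LOI(+) 2 and LOI(-) 3. The deletion is in every cell of the body, so the crypts were not its only target, and it removes H19 as well as the imprint. Between 5000 and 13000 crypts per mouse were cut from frozen sections of the middle of the small intestine, and crypt RNA in Cy3 was hybridised on 1 array per mouse against a pool of RNA from 11 cultured cell lines in Cy5. Each value is a log2 ratio of Cy3 over Cy5. A value of 0 means equal signal from crypts and from the pool, and since dyes were never swapped, a dye effect is part of each ratio but is shared by both groups.

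Heat shock proteins are chaperones, which keep other proteins folded or help to refold them. The HSP70 proteins bind exposed stretches of a client in a cycle driven by ATP, DNAJ proteins bring the client and start the cycle, and HSP110 proteins such as Hsph1 release ADP so that it can start again. Inducible members are transcribed when heat shock factor 1 binds heat shock elements in their promoters, while constitutive members are made in unstressed cells as well, although several of them also rise with heat.

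Several markers of the labelled tissue were far above the pool. On the log2 ratio scale Tff3 of goblet cells lay between 5.24 and 5.48, Mmp7 of Paneth cells between 5.07 and 5.48 and the epithelial Epcam between 2.90 and 3.42 on the 6 arrays, whereas the fibroblast collagen Col1a1 lay between -2.74 and -2.51. Other epithelial genes were near the pool, Krt18 between -0.19 and 0.39 and Cdx2 between -0.22 and 0.35. Villus genes were also far above it, with Fabp1 between 4.88 and 6.95 and Fabp2 between 5.06 and 5.58, and the B cell gene Ms4a1 lay between 0.53 and 1.22. Negative control features, taken at their 95th percentile, gave a Cy3 signal of 439 to 449, and the median over an array was 552 to 603. Igf2 itself differed by -0.0024 ± 0.058 (log2 difference ± SE, adjusted p = 0.997 in limma), and no probe was paired with H19. The Igf2 probe was read at low signal, 622 to 728 in Cy3 and 794 to 868 in Cy5. The images of the 3 LOI(-) arrays were extracted before those of the 3 LOI(+) arrays, so the order of extraction cannot be told apart from the group. In RNA of whole crypts, fewer cells of a type and less RNA per cell cannot be told apart either.

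Hspa8, the constitutive HSC70 of the cytosol, was read by 5 probes, and their sequences are shown because the 5 gave very different ratios for 1 gene. They are printed 5′ to 3′ as deposited for the array, and each has at least 1 reading frame without a stop. Capitals mark the run of 48 bases that A_66_P129223 and A_66_P137434 share, so these probes are not independent of each other.
A_66_P115095: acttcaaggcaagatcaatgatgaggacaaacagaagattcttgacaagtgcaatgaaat
A_66_P133783: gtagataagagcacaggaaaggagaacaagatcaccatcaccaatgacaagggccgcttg
A_66_P110246: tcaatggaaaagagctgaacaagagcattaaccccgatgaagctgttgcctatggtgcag
A_66_P137434: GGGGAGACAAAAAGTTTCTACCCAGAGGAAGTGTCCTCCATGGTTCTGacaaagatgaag
A_66_P129223: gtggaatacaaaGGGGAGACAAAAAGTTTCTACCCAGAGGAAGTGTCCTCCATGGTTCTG

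The genome sequence before the gene start is shown for 3 measured members with matches there to motifs of the heat shock element. Such elements bear on the split into inducible and constitutive members, but no match was tested as a site. The motifs searched were GAANNTTC and TTCNNGAA, each of which reads the same on both strands, and a long form searched on both strands, in which the 2 overlap by 1 triplet. Capitals mark the matches in the last 130 bases before the start, from RefSeq's GRCm38.p6 promoter table.
Hspb1 (chr5:135887789-135887918, plus strand): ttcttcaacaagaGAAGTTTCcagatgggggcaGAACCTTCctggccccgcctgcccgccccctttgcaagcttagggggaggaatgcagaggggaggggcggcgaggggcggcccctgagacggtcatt
Hspe1 (chr1:55088018-55088147, plus strand): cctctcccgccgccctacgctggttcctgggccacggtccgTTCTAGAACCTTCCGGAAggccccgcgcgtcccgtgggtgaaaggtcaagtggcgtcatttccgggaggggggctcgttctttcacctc
Dnaja1 (chr4:40722338-40722467, plus strand): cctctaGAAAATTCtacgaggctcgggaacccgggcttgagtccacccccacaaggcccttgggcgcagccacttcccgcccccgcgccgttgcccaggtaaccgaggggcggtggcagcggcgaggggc

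Within 250 bases before the start, GAANNTTC was found in 6.69%, TTCNNGAA in 7.17% and the long form in 0.466% of the 32851 promoter windows of the table. Hspb1 held 2 matches to GAANNTTC. Hsph1 held 1 match to TTCNNGAA in both of its windows, which precede transcript starts inside the annotated gene and are not printed. Hspe1 held 2 overlapping matches to the long form within an unbroken run of 18 bases, between 72 and 89 bases before its start. Hspe1 encodes HSP10, the lid of the HSP60 chamber, and lies head to head with Hspd1. One of the Hspd1 windows therefore holds the same matches on its own strand. Of the 3 windows of Dnaja1, only the 1 before the annotated gene held a match, at 117 to 124 bases. The others lie inside the gene. The 2 windows of Dnajb1, 1 before the annotated gene and 1 inside it, held no match. Hspa8 and Hspa9 were not searched. Hspa1a and Hspa1b each held 1 match to GAANNTTC, 97 to 104 bases before the start. A match is a description of letters and was not tested as a site.

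Across the 15 probes no gene passed the test between the groups. What the data show is a set of small differences around a large spread between arrays. With 1 array per mouse, the animal and its array cannot be told apart. Over all 41006 probes 0% were called at an adjusted p of 0.05 in limma, and 0 of the 15 member probes were called, the smallest adjusted p being 0.808. At an unadjusted p under 0.05 there were 2 member probes, 1 higher for Hspa9 and 1 lower for Hspb1, against 6.11% of all probes (3.82% higher and 2.30% lower). The groups of arrays did not overlap for the same 2 probes, against 11.3% of all probes (6.26% higher and 5.04% lower). Of the 15 probes 9 had a lower mean in LOI(+), against 49.0% of all probes, and the median difference of the 15 was -0.14 log2, beside 0.0023 over all probes.

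**Figure D1:**
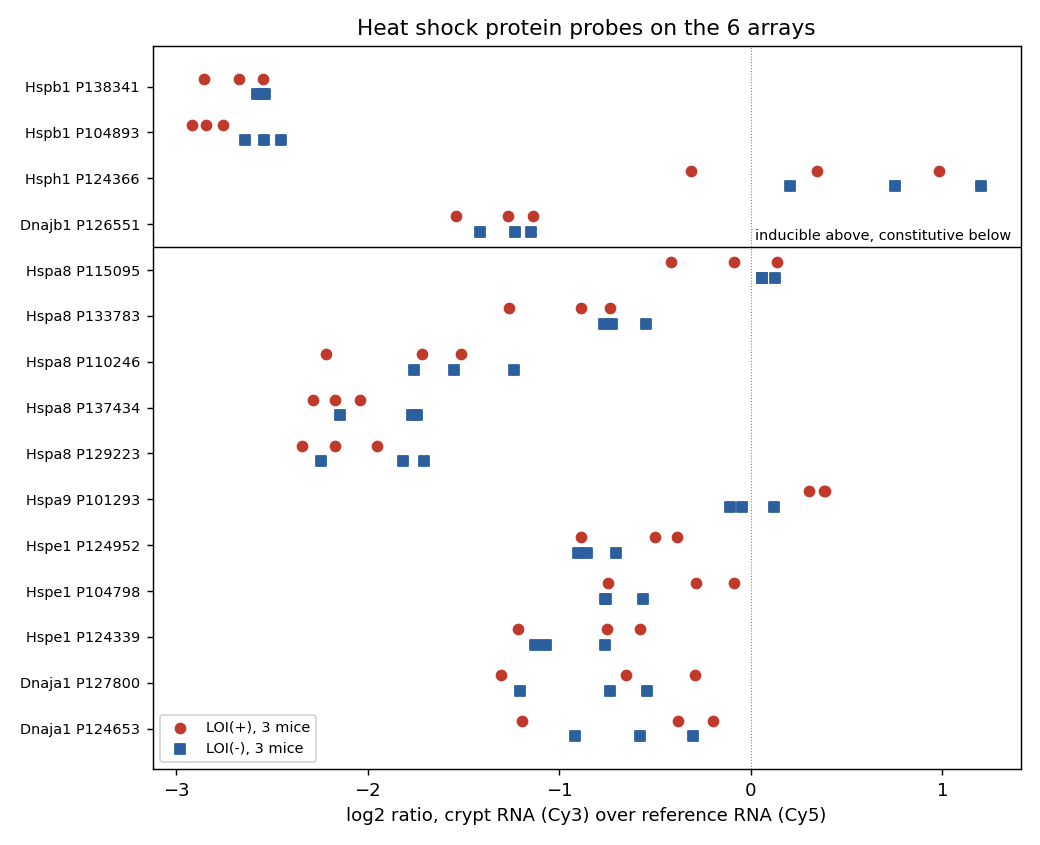
Log2 ratio of crypt RNA over reference RNA (x axis) for the 15 probes of 7 heat shock protein genes (rows, named by gene and the end of the probe name), 1 point per mouse, LOI(+) above LOI(-) in each row. The Hspa9 points of LOI(+), from 0.31 to 0.39, lie to the right of those of LOI(-), from -0.11 to 0.12, and the Hspb1 points lie furthest left.

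Among the HSP70 proteins, Hspa9 had the smallest p of all members. It encodes mortalin, the HSP70 of the mitochondrial matrix, which pulls imported proteins through the inner membrane, and lies on chromosome 18. Its log2 ratio was 0.31, 0.38 and 0.39 in LOI(+) crypts, against -0.11, -0.048 and 0.12 in LOI(-) crypts. Every LOI(+) mouse was above every LOI(-) mouse. The difference was 0.37 ± 0.075 (SE, n = 3 each), a fold of 1.29 with a 95% interval from 1.14 to 1.46, and it did not pass, with an unadjusted p of 0.00164 and an adjusted p of 0.808 in limma. Without any 1 of the 6 arrays it stayed between 0.32 and 0.44. Its Cy3 signal was 9621, 14063 and 11197 in LOI(+) crypts and 8660, 6953 and 8120 in LOI(-) crypts, with no saturated spot in either channel.

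Hspa8 pointed the other way on every one of its 5 probes, with differences between -0.30 and -0.21 log2. The gene lies on chromosome 9 from 40801276 to 40805202, and its product also serves in taking clathrin coats off vesicles. With A_66_P133783, the brightest probe with no saturation, the log2 ratio was -1.26, -0.74 and -0.89 in LOI(+) crypts, against -0.77, -0.72 and -0.55 in LOI(-) crypts. LOI(+) 1 was low and the groups overlapped. The difference was -0.28 ± 0.14, a fold of 0.822 with a 95% interval from 0.655 to 1.03 and an adjusted p of 0.823 in limma.

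The brightest probe of all, A_66_P115095, was saturated in Cy5 on all 6 arrays, so its ratios to the pool are upper bounds. They were -0.42, 0.13 and -0.087 in LOI(+) crypts, against 0.058, 0.058 and 0.13 in LOI(-) crypts, a difference of -0.21. In the Cy3 channel the difference was -0.24, after a normalization in which the saturated Cy5 also enters. The raw Cy3 signal of this probe was 19646.8, 39513.8 and 25466.9 in LOI(+) crypts and 29646.8, 23492.5 and 27072.6 in LOI(-) crypts, and the groups overlapped. No other member probe was saturated in either channel. With A_66_P137434, which had the smallest p of the 5, the log2 ratio was -2.28, -2.04 and -2.17 in LOI(+) crypts and -2.15, -1.77 and -1.74 in LOI(-) crypts. They differed by -0.28 ± 0.12 (unadjusted p = 0.0566, adjusted p = 0.821 in limma). The overlapping A_66_P129223 had -0.23 ± 0.16 and A_66_P110246 had -0.30 ± 0.20. Both overlapping probes were dim. Their Cy3 signal was 698 to 793 with A_66_P137434 and 541 to 608 with A_66_P129223, against 439 to 449 for the negative controls. LOI(+) 1 had the lowest ratio on all 5 probes, and without it the 5 differences lay between -0.22 and -0.058. The 4 unsaturated probes thus differed little in the group difference but widely in the ratio itself, with medians over the 6 arrays from -2.09 with A_66_P137434 to -0.75 with A_66_P133783. Which of these ratios stands for the Hspa8 transcript was not tested.

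Hspe1, on chromosome 1 from 55088148 to 55091317, had higher means in LOI(+) on all 3 of its probes. With the brightest, A_66_P124952, the log2 ratio was -0.89, -0.39 and -0.50 in LOI(+) crypts, against -0.90, -0.86 and -0.70 in LOI(-) crypts. LOI(+) 2 and LOI(+) 3 stood above every LOI(-) mouse, and LOI(+) 1 lay among them. The difference was 0.23 ± 0.13, a fold of 1.17 with a 95% interval from 0.944 to 1.46 and an adjusted p of 0.830 in limma. The other probes gave 0.32 ± 0.16 with A_66_P104798 and 0.14 ± 0.17 with A_66_P124339. Without LOI(+) 1 the 3 differences were 0.38, 0.51 and 0.32 in that order, and without LOI(+) 2 they were 0.13, 0.18 and 0.0028. Hspa9 and Hspe1 both work in the mitochondrial matrix, and all 4 of their probes had higher means in LOI(+). That grouping was made after the values were seen and has no test.

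Hsph1, the HSP110 exchange factor on chromosome 5 from 149616843 to 149636498, varied most between arrays. Its log2 ratio was -0.31, 0.35 and 0.98 in LOI(+) crypts, against 0.21, 1.20 and 0.75 in LOI(-) crypts. The lowest and the highest mouse were in different groups, and the values of the groups lay intermixed over 1.51 log2 units. The SD over the 6 arrays was 0.56, above that of 99.6% of all probes. The difference of -0.38 ± 0.36 had a 95% interval of the fold from 0.426 to 1.38 and an adjusted p of 0.879 in limma, and that interval holds both no change and the fold seen for Hspa9. Without LOI(+) 1 it was -0.057 and without LOI(+) 3 it was -0.70.

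The genes whose log2 ratios lay nearest to Hsph1 over the 6 arrays, among 12254 named genes and by root mean square difference after centring, included other co-chaperones. Fkbp5, a co-chaperone of HSP90 in steroid receptor complexes, was nearest at 0.165 log2. Its log2 ratio was -0.57, 0.27 and 0.59 in LOI(+) crypts and 0.36, 1.06 and 0.62 in LOI(-) crypts, the same low and high mice as for Hsph1. After it came Snrpd3, a core protein of spliceosomal snRNPs, at 0.228, Smim3 at 0.242, Smco4 at 0.259 and Ahsa2, a relative of the HSP90 activator Ahsa1, at 0.269. These distances describe 6 arrays and carry no test.

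Dnaja1 and Dnajb1 are DNAJ partners of HSP70. Dnaja1, on chromosome 4 from 40722468 to 40734965, had log2 ratios with A_66_P127800 of -1.31, -0.29 and -0.65 in LOI(+) crypts, against -1.20, -0.54 and -0.73 in LOI(-) crypts. The mouse numbered 1 was the lowest of its group in each case, and the groups overlapped, with the wider span in LOI(+). The difference was 0.077 ± 0.27, and the other probe, A_66_P124653, gave 0.011 ± 0.27. Both probes had an SD over the 6 arrays of 0.39, above that of 98.5% of all probes. Without LOI(+) 1 the difference with A_66_P127800 was 0.35, and it turned to -0.15 without LOI(+) 2 and to -0.11 without LOI(-) 1.

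Dnajb1, an HSP40 that heat raises together with HSP70, lies on chromosome 8 from 83608175 to 83612653. Its log2 ratio was -1.54, -1.27 and -1.14 in LOI(+) crypts, against -1.41, -1.23 and -1.15 in LOI(-) crypts. The groups overlapped almost fully. The difference was -0.052 ± 0.12, a fold of 0.964 with a 95% interval from 0.795 to 1.17, and its adjusted p was 0.957 in limma. Its Cy3 signal, 525 to 572, exceeded that of the negative controls in every mouse, though by less than for most members.

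Hspb1, the small heat shock protein HSP25 that also binds actin, lies on chromosome 5 from 135887919 to 135889563 and was the member with the lowest ratios to the pool of cell lines. With A_66_P138341 the log2 ratio was -2.86, -2.67 and -2.55 in LOI(+) crypts, against -2.54, -2.58 and -2.55 in LOI(-) crypts, a difference of -0.14 ± 0.084 with an adjusted p of 0.833 in limma. With A_66_P104893 it was -2.84, -2.92 and -2.75 in LOI(+) crypts, against -2.54, -2.64 and -2.45 in LOI(-) crypts. Only this probe kept the groups apart, at -0.29 ± 0.074 with an unadjusted p of 0.00538 and an adjusted p of 0.808 in limma. Its Cy3 signal was 455, 444 and 458 in LOI(+) crypts and 473, 455 and 471 in LOI(-) crypts, and it was above the 95th percentile of the negative controls on 5 of the 6 arrays, LOI(+) 2 being the exception. Hspb1 was thus read close to the floor of the arrays.

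**Figure D2:**
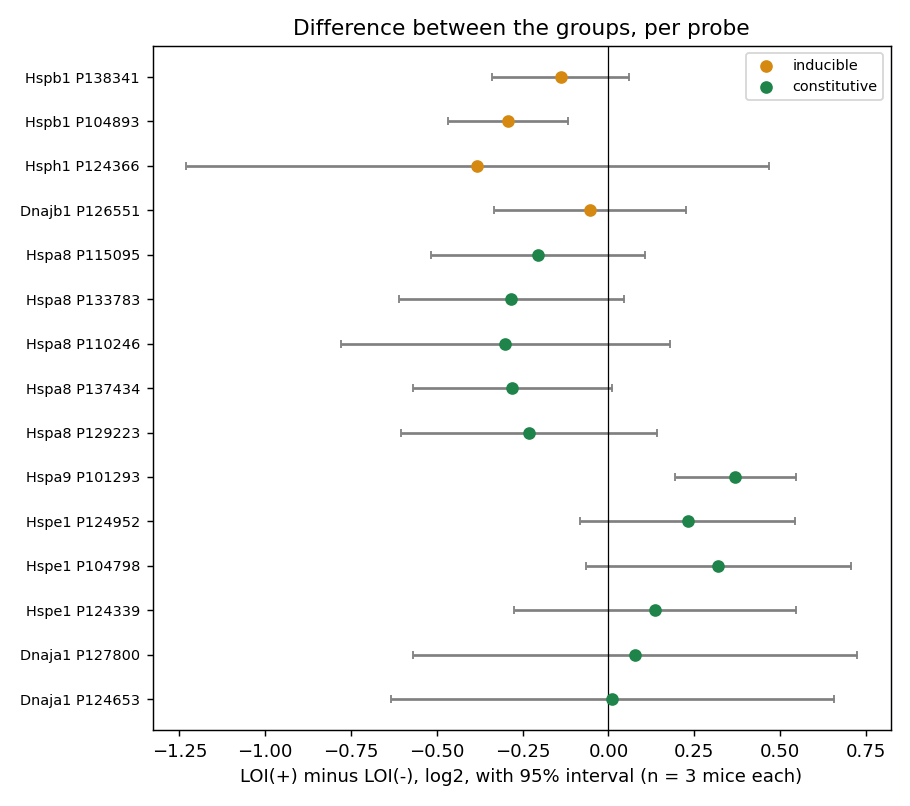
Difference of LOI(+) minus LOI(-) on the log2 scale (x axis) for each of the 15 probes (rows), with points for the estimate from limma, bars for its 95% interval and colour for the class. The intervals of Hspa9 and of the Hspb1 probe A_66_P104893 leave out 0, and neither difference passed after adjustment over all probes.

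Set against each other, the inducible members had lower means in LOI(+) and the constitutive members had no common sign. All 3 inducible genes had a lower mean in LOI(+) with their brightest probe, and 3 of the 4 constitutive genes had a higher one, with medians of -0.14 and 0.15, beside 0.0067 over all named genes. The largest inducible difference was that of Hsph1, at -0.38 ± 0.36, while Hspb1 and Dnajb1 were dim. The signs of Dnajb1 and of the constitutive Dnaja1 turned when some single arrays were left out. The mean over the inducible members was -1.57, -1.20 and -0.90 in LOI(+) crypts, against -1.25, -0.87 and -0.98 in LOI(-) crypts. The constitutive mean was -0.58, -0.041 and -0.21 in LOI(+) crypts, against -0.54, -0.35 and -0.30 in LOI(-) crypts. With the saturated Hspa8 probe left out the constitutive difference was 0.098, against 0.12 with it. Only differences between arrays can be read from such means, since their level depends on which probes enter.

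Per array, the inducible mean minus the constitutive mean was -0.99, -1.16 and -0.69 in LOI(+) crypts, against -0.71, -0.52 and -0.68 in LOI(-) crypts. LOI(+) 3 lay within the range of the LOI(-) mice and the others lay below it. The group means of -0.95 ± 0.24 and -0.64 ± 0.10 (SD, n = 3 each) differed by -0.31. These scores describe 7 genes chosen with earlier results known and have no test. The class differences were -0.19 for inducible and 0.12 for constitutive members, smaller than the pooled SDs between arrays of 0.27 and 0.21. The difference of -0.31 between the classes was larger than its pooled SD of 0.18. Without LOI(+) 1 the class differences were -0.018 and 0.27. The difference between the classes was then -0.29, and without LOI(+) 2 it was -0.20.

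LOI(+) 1 was the low array for most members. It had the lowest ratio on 11 of the 15 member probes, against 17.7% of all probes, and the highest on none. LOI(+) 2 was highest on 6 and LOI(-) 3 on 5 of them, against 22.3% and 16.3% of all probes. Neither of these mice has a sex label. In the mice labelled male alone the class differences were -0.18 for inducible and 0.049 for constitutive members, and the part of sex was not tested. The deviations of LOI(+) 1 from the probe mean reached -0.84 for Hsph1, -0.60 for Dnaja1 with A_66_P124653 and -0.55 for Hspa8 with A_66_P110246, while Hspa9 was above its mean there, at 0.13. Several probes share a gene, so the 15 are not independent counts. A low LOI(+) 1 was not particular to the members. Among related genes it was also the lowest array for Hsp90aa1, Fkbp5 and Hsbp1, though not for Hsp90ab1, Fkbp4 or Hspa14.

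**Figure D3:**
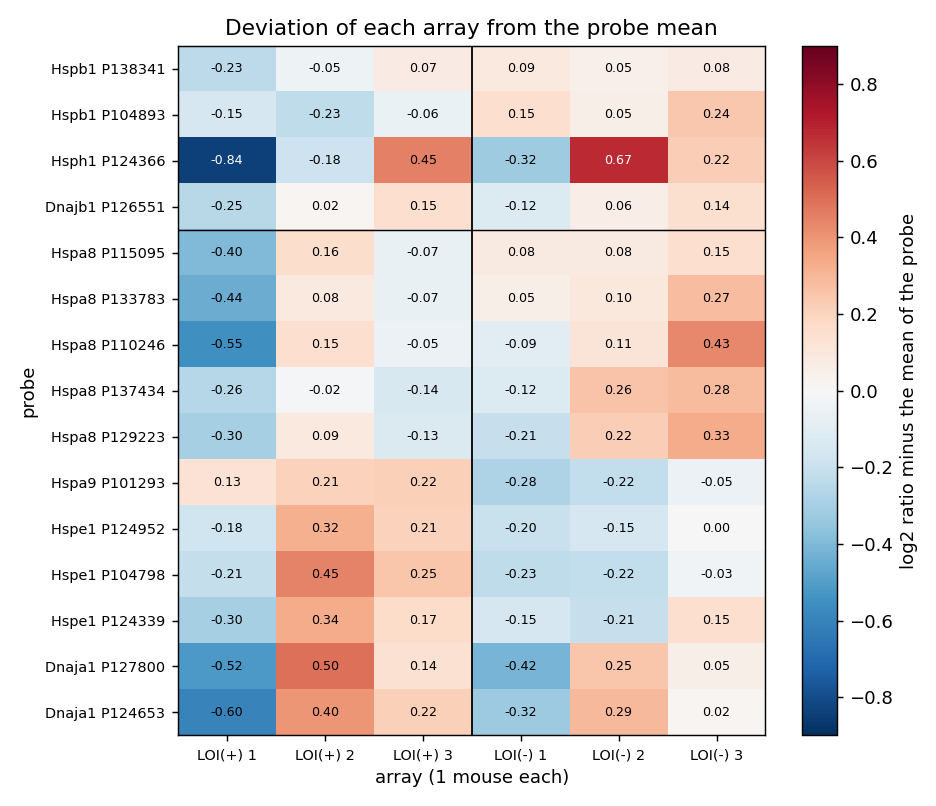
Log2 ratio minus the mean of the probe over the 6 arrays (colour and printed value) for the 15 probes (rows) on the 6 arrays (columns, LOI(+) left of LOI(-)). LOI(+) 1 is the lowest array on 11 of 15 probes, and the row of Hspa9 alone is positive in all 3 LOI(+) mice and negative in all 3 LOI(-) mice.

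Markers of other cells and of handling were set beside these values. Of 8 measured immediate early genes, which rise within minutes of a stress, 6 had a lower mean in LOI(+). Their list mean was -1.85, -1.86 and -1.91 in LOI(+) crypts, against -1.95, -1.62 and -1.75 in LOI(-) crypts, and LOI(+) 1 was not the lowest array there. Of 11 measured epithelial markers, 10 had a lower mean in LOI(+), whereas 52.8% of all named genes had a higher one. Cdx1, Muc2, Krt8 and Tff3 were lower at an unadjusted p under 0.05 in limma, 4 of the 11 against 2.59% of all named genes. For 3 of the 11 the groups did not overlap, all 3 lower in LOI(+), against 5.04% of all probes. The list had means of 2.65, 2.64 and 2.84 in LOI(+) crypts and 2.92, 2.75 and 3.04 in LOI(-) crypts. The villus enterocyte genes Fabp1 and Fabp2 averaged 5.97, 6.03 and 6.26 in LOI(+) crypts, against 4.97, 6.02 and 5.88 in LOI(-) crypts. Smooth muscle markers averaged -0.26, -0.35 and 0.016 in LOI(+) crypts, against -0.097, -0.15 and 0.031 in LOI(-) crypts. Among the 3 measured, Tagln stood at -0.35 ± 0.12 with the groups apart, Des at -0.12 ± 0.067 and Cnn1 at 0.094 ± 0.18. Fibroblast, T cell, myeloid and endothelial markers had lower means in LOI(+) for all 10 genes measured, none past the adjusted test. Of these 10, only the T cell gene Cd3g had an unadjusted p under 0.05 in limma, at -0.29 ± 0.078. The share of all named genes lower at that level was 2.59%. B and plasma cell markers had lower means for 2 of 4, and erythrocyte markers had no paired probe. The part of any of these in the heat shock values was not tested.

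The wider chaperone network was read through lists written from textbook knowledge, with the brightest probe per gene, and none of its genes passed the adjusted test in limma. Of all named genes 7.50% had an unadjusted p under 0.05, 4.91% with a higher and 2.59% with a lower mean. Among HSP90 and its co-chaperones, 15 of 16 genes had a probe, 1 was higher and 0 were lower at that level, and the median difference was 0.0017. Fkbp4, the co-chaperone FKBP52 of steroid receptors, was the 1 at that level. Its log2 ratio was 0.34, 0.68 and 0.39 in LOI(+) crypts, against 0.11, 0.14 and 0.15 in LOI(-) crypts, a difference of 0.34 ± 0.095 (adjusted p = 0.808 in limma). The HSP90 genes themselves stood at 0.11 ± 0.18 for the heat-inducible Hsp90aa1 and -0.058 ± 0.12 for the constitutive Hsp90ab1. The 3 Hsp90aa1 probes ranged from -0.32 to 0.11. Fkbp5 differed by -0.58 ± 0.31 and Ppid, a cyclophilin of the same complexes, by 0.24 ± 0.13.

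Other HSP70 proteins and their partners had a median difference of -0.0069 over 16 of 19 genes, with 1 gene higher and 0 genes lower at that level. Hspa14, an HSP70 that works at the ribosome, had log2 ratios of -0.79, -0.22 and -0.82 in LOI(+) crypts, against -1.33, -1.23 and -0.87 in LOI(-) crypts. The groups did not overlap, and they differed by 0.53 ± 0.19 (adjusted p = 0.808 in limma). Bag1, an exchange factor, stood at 0.29 ± 0.14 and Stub1, the ubiquitin ligase CHIP, at 0.22 ± 0.12. Bag3, a partner of HSP70 in autophagy and a target of heat shock factor 1, stood at -0.10 ± 0.092, and its 2 probes had opposite signs.

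Other DNAJ proteins had a median of 0.041 over 28 of 38 genes, with 2 higher and 1 lower at that level. Dnajc14 was at 0.26 ± 0.079 and Dnajc19, of the mitochondrial import motor, at 0.39 ± 0.16. Dnajb2 was at -0.34 ± 0.093, while another Dnajb2 probe gave 0.016. The subunits of the TRiC chaperonin, which folds actin and tubulin, and of prefoldin had the highest median of the chaperone lists, 0.15 over 12 of 15 genes, with 10 of the 12 higher, against 52.8% of all named genes. At the same level 2 of them were higher and 0 were lower. These were Cct7 at 0.22 ± 0.066 and Pfdn6 at 0.19 ± 0.074. The Pfdn6 fit lacked LOI(-) 3, where its spot was marked as an outlier. Cct6a stood at 0.15 ± 0.12. Other probes gave 0.046 for Pfdn6 and -0.044 for Cct6a, so the Cct6a probes disagree in sign. Over the 11 genes with a value on every array the list means were -1.24, -0.93 and -1.01 in LOI(+) crypts, against -1.25, -1.31 and -0.97 in LOI(-) crypts, and the groups overlapped.

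Of the other small heat shock proteins, 5 of 8 had a probe and their median was -0.050. Cryab, alpha-B-crystallin, had log2 ratios of -1.43, -1.38 and -1.45 in LOI(+) crypts, against -1.31, -1.23 and -1.12 in LOI(-) crypts, a difference of -0.20 ± 0.067. Hspb7 was at 0.16 ± 0.065 and Hspb3 at -0.057 ± 0.063. Among the heat shock factors, 4 of 5 had a probe. Hsf2, a developmental heat shock factor, stood at 0.19 ± 0.065 with the groups apart and an adjusted p of 0.808 in limma. Hsf1, the factor of the heat response, stood at -0.54 ± 0.28 with its brighter probe and at 0.040 with the other, so its probes disagree. Hsbp1, which binds heat shock factor 1, stood at -0.094 ± 0.14.

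**Figure D4:**
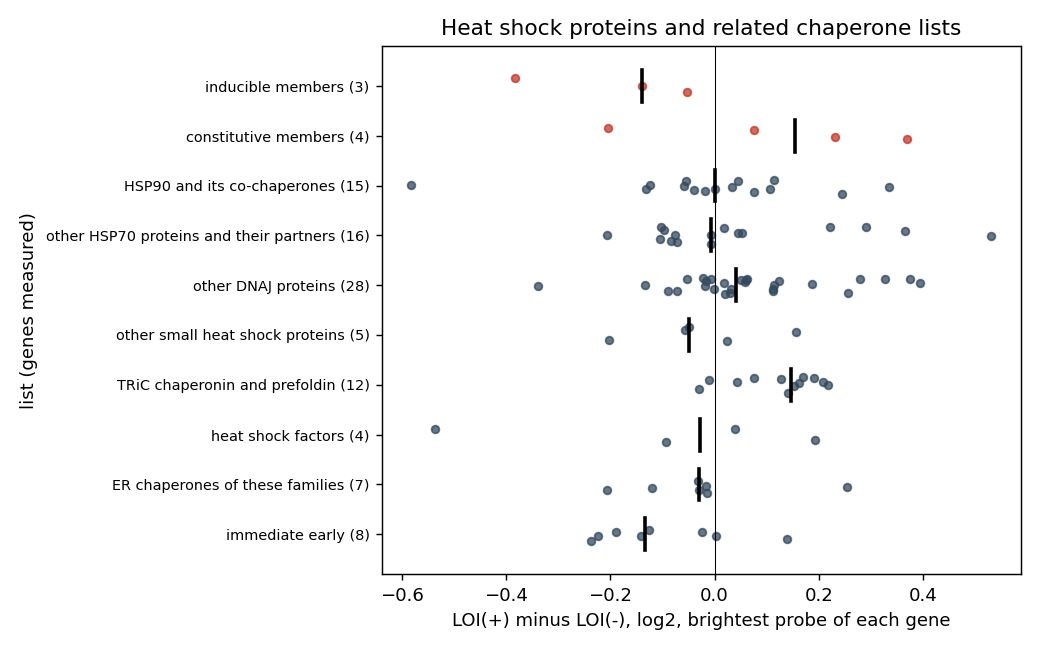
Difference of LOI(+) minus LOI(-) on the log2 scale (x axis) of the brightest probe of each gene, 1 point per gene, by list (rows, with the number of genes measured), with a black bar at the median of each list. The 3 inducible members all lie left of 0, the median of TRiC and prefoldin lies at 0.15, and no point passed the adjusted test.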

How the data were processed

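RNA of 6 mice, 1 array each, was grouped by title. The authors deposited Agilent Feature Extraction A.7.5.1 output, per the file headers, with the intensity of each spot in Cy3 and Cy5, raw and, as processed signals, after background subtraction and LOWESS dye normalization. A deposited table of log10 values was an alternative. It matched the processed ratios plus the mean log10 reference signal, r being at least 0.9985. Background was removed from mean signals by normexp (offset 50) in limma 3.58.1 under R 4.3.3, followed by loess within arrays with control features at weight 0. Outlier-marked features were left out and saturated ones kept. Probes were named by accession or synonym from a GRCm38.p6 gene table, 15381 of 41006 probes. Groups were compared with lmFit and eBayes, two-sided, with Benjamini-Hochberg adjustment over 41006 probes. The fit was first tested on simulated data. The members, lists and tests were chosen with earlier results of these data known. Named genes were all members with every probe, up to 3 genes of smallest p per chaperone list, 5 fixed genes (Hsf1, Hsf2, Hsp90aa1, Hsp90ab1 and Bag3), the 5 genes nearest to the most variable member, and Igf2. The number of arrays limits the precision, and p-values measure the spread between arrays. With 1 array per mouse, the mouse cannot be told apart from the dissection and labelling of its RNA.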

Additional observations from a re-analysis of the deposited data

How the results depend on the processing

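The alternatives were no background correction, the processed signals, median centring, scale normalization, the deposited table, and filters on dim and on saturated probes. The Cy3 channel was also fitted by itself, after a normalization in which both channels enter. The rest were other probe choices and models, the mice labelled male, and leaving out each array. In each of the 19 alternative fits 0 probes passed an adjusted p of 0.05 in limma, and the smallest adjusted p was 0.136. Unadjusted p-values under 0.05 numbered 2507 in the fit reported, 3596 when LOI(+) 1 was left out and 1604 when LOI(+) 2 was. Hspa9, Hspa8, Hspe1, Hsph1 and Hspb1 kept the sign of their brightest remaining probe in each of their 19 alternatives. Some of these could not move an estimate: the replicate block, the unmoderated test and a trend in intensity change only its error. The filter on dim probes moved none of these genes, and the filter on saturated probes moved only Hspa8. Sizes moved more: Hspa8 was -0.21 in the fit reported, -0.046 under median centring and -0.31 in the mice labelled male, Hspe1 was 0.23 and 0.36 under median centring, Hsph1 was -0.38 and -0.20 with no background correction, and Hspb1 was -0.14 and -0.31 under scale normalization. The constitutive mean of 0.12 became 0.22 under median centring and 0.049 in the mice labelled male, and the inducible mean of -0.19 became -0.11 with no background correction. Dnaja1 turned to -0.11 in the mice labelled male and ranged from -0.15 to 0.35 with an array left out, and Dnajb1 ranged from -0.14 to 0.060. The inducible mean ranged from -0.35 to -0.018, the constitutive mean from -9.9e-05 to 0.27 and their difference from -0.44 to -0.20 with an array left out. The cause of these shifts was not tested. With the replicate number as a block 0 probes passed. The class difference was -0.31 as without it, which the balanced design fixes. Deviations of same-numbered arrays from their group means had r of -0.084, -0.25 and 0.35. Such deviations cancel within so small a group, so these values cannot show whether the numbers pair the mice. Dim signals limit Hspb1, Dnajb1 and the overlapping probes of Hspa8.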

Other observations

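Chaperones of the endoplasmic reticulum from the same families were measured for all 7 genes listed, and 6 had a lower mean in LOI(+), with a median difference of -0.029. Of all named genes 52.8% had a higher mean. Calr, Sil1, Hsp90b1 and Canx were near 0, between -0.031 and -0.014, and the Hsp90b1 probe was saturated in Cy5 on all 6 arrays. Serpinh1, the collagen chaperone HSP47, had log2 ratios of -2.35, -2.47 and -2.39 in LOI(+) crypts, against -2.13, -2.27 and -2.17 in LOI(-) crypts, a difference of -0.21 ± 0.065 with an adjusted p of 0.808 in limma. Hspa5, the HSP70 of that compartment, stood at -0.12 ± 0.18, and Hyou1, its exchange factor, at 0.25 ± 0.15 with the brighter of its 2 probes and -0.15 with the other. Among the immediate early genes, Jun stood at 0.14 ± 0.063, Atf3 at -0.14 ± 0.075 and Junb at -0.24 ± 0.13.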
